A study of Mus musculus with 16 samples.

Results

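A set of 10 genes that mark pluripotent cells and early germ cells was followed by name: Pou5f1, Nanog, Sox2, Dppa3, Dppa4, Dppa5a, Utf1, Kit, Tfap2c and Prdm1. They are 10 of the 18194 genes that the array names. The list was taken by name and not by a threshold on these values, but with earlier results of these data known. The arrays read them with 15 probe sets, of which 14 passed the filter on low values, and all 10 genes were tested. The probe set with the highest mean stood for its gene: 1417945_at for Pou5f1, 1429388_at for Nanog, 1416967_at for Sox2, 1424295_at for Dppa3, 1429597_at for Dppa4, 1416552_at for Dppa5a, 1416899_at for Utf1, 1452514_a_at for Kit, 1436392_s_at for Tfap2c and 1420425_at for Prdm1. RNA from mouse embryonic gonads was hybridised to 16 Affymetrix Mouse430_2 arrays. The arrays form 8 groups of 2: Wnt4 knock-out testis, wild-type testis, Wnt4 knock-out ovary and wild-type ovary, each at embryonic days 14.5 (E14.5) and 12.5 (E12.5). Wnt4 encodes a secreted WNT signalling protein needed for ovary development. The labels name no strain, no targeted allele and no number of embryos per array, and p-values here cover the spread between arrays alone. Male samples carry the word ovary in their titles but testis as their source, and were taken as testis.

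Primordial germ cells, the precursors of eggs and sperm, keep much of the pluripotency programme of the early embryo while they migrate to and settle in the gonad. In the fetal ovary the germ cells then shut that programme down as they enter meiosis. In the fetal testis they stop dividing without entering meiosis and lose it later. POU5F1 (OCT4), NANOG and SOX2 are the core transcription factors of the programme, and POU5F1 and SOX2 bind DNA as a pair. DPPA3 (Stella) protects DNA methylation marks in the early embryo, DPPA4 is a chromatin protein that works with DPPA2, DPPA5A is an RNA-binding protein, and UTF1 is a chromatin protein of pluripotent cells. KIT is the receptor through which germ cells receive KIT ligand from their neighbours. PRDM1 (BLIMP1), a transcriptional repressor, and TFAP2C are needed to specify the germ cell lineage.

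Across the arrays the 3 core factors had Pearson correlations of log2 intensity of 0.76 to 0.86, lower than that of Dppa4 with Utf1 (0.94). Their promoters are shown as background. Each is the 250 bases before the RefSeq gene start, on the plus strand of GRCm38.p6. These are chr6:122707239-122707488 for Nanog, chr17:35505782-35506031 for Pou5f1 and chr3:34649745-34649994 for Sox2. Capitals mark motifs searched on both strands, named after the sequences.
Nanog: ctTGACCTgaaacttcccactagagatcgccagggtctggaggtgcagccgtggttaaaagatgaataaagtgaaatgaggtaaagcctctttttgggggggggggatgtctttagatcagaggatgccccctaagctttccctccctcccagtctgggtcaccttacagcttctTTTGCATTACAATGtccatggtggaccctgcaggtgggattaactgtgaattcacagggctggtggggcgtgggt
Pou5f1: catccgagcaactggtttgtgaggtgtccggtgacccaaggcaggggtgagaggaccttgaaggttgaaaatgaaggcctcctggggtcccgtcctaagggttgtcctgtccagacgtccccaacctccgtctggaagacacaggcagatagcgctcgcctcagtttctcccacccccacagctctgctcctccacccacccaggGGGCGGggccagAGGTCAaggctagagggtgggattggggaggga
Sox2: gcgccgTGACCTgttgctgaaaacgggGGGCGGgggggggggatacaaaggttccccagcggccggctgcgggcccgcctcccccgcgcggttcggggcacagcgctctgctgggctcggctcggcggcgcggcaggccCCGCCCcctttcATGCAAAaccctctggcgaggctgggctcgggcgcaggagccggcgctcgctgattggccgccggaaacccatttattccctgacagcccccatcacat
In the Nanog promoter the long capital run is a joint OCT-SOX motif, read on the minus strand, 75 bases before the gene start. The motif searched was the SOX run CATTGT, 1 base of any kind and the octamer core ATGCAAA, so it overlaps the octamer core there. That joint motif occurred in 2 of 32851 RefSeq promoter windows of the same length (0.00609%). Both windows belong to Nanog, overlap each other and hold the same single site. Sox2 held the octamer core alone, 99 bases before its start, a run present in 4.12% of windows. The short capitals are the nuclear receptor run AGGTCA (14% of windows) and the GC box GGGCGG (32.7%). Pou5f1 held 1 of each, at 33 and 45 bases, and neither the octamer core nor the joint motif in this window. A window was listed for 6 of the 10 genes, and a match describes letters only.

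Wnt4 was read first, as a check of the labels. It had intensities of 351 and 302 in knock-out ovary at E14.5, against 1138 and 1151 in wild type. Knock-out testis at E14.5 had 277 and 371 of Wnt4, against 753 and 512 in wild-type testis. In the ovary at E12.5 the arrays labelled knock-out had 839 and 520.2, against 844 and 1822 in wild type. In the testis at E12.5 the labelled knock-outs had 413 and 231, against 502 and 473 in wild type. The knock-out array with 839 lay level with a wild-type array, and the sources do not say which part of the gene was deleted. Mean intensity lay between 272 and 288 per array. Transcripts of the other sex (Eif2s3y, Kdm5d and Uty in ovaries, Xist in testes) put the share of RNA of the other sex above 10% in 5 arrays. These were knock-out testis replicate 2 (16.4%), wild-type testis replicate 2 (22.7%) and wild-type ovary replicate 2 (19.9%) at E14.5, and knock-out ovary replicate 2 and wild-type ovary replicate 1 at E12.5. Marker sums for Sertoli cells, the supporting cells of the testis, were 3177 to 5206 in testes and 108 to 1404 in ovaries. Both E12.5 arrays of wild-type testis were nearly the same (SD of their log2 differences 0.142, against 0.335 to 0.587 in the other pairs). Wild-type ovary replicate 1 at E14.5 stands apart for the genes described here, and results that rest on it or on replicate 2 are given without each. Those 2 arrays enter the sex, genotype and stage comparisons of wild-type ovary at E14.5, which are therefore not independent of each other.

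In wild-type gonads at E14.5 all 7 pluripotency genes read higher on both testis arrays than on both ovary arrays, and the size of the difference rested on which ovary array was read. Sox2, Dppa4 and Utf1 passed the test, 3 of the 10 genes, while 3.84% of all 12332 genes were called in this comparison and 2.26% were called higher. The median log2 change of the 10 genes was 2.43, against -0.02 over all genes tested. Each change was taken as a difference of log2(intensity + 4), and a gene was called at an adjusted p under 0.05 in limma, corrected over all genes. With 2 arrays against 2, full separation of a gene cannot reach a two-sided permutation p below 0.333. The share of all genes that separate in this way was not counted. In bulk RNA, fewer germ cells and less RNA per germ cell cannot be told apart.

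Among the core factors, Sox2 had 362 and 615 in wild-type testis at E14.5, against 10.3 and 128 in wild-type ovary. The groups did not overlap, and Sox2 was 10.9-fold higher in testis (log2 change 3.45, SE 0.708, limma adjusted p = 0.0152). Pou5f1 had 405 and 246 in testis, against 7.40 and 165 in ovary (log2 change 2.86, SE 0.90, limma adjusted p = 0.105). Nanog, the dimmest of the core probe sets on these arrays, had 63.0 and 96.1 in testis, against 6.76 and 28.8 in ovary (log2 change 2.12, limma adjusted p = 0.0747). For each of the core factors both testis arrays lay above both ovary arrays, and on the log2 scale the ovary arrays lay further apart than the testis arrays.

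Dppa4 had 1528 and 1907 in wild-type testis at E14.5, against 15.6 and 555 in wild-type ovary (16.4-fold, log2 change 4.03, SE 1.04, limma adjusted p = 0.0483). Utf1 had 152 and 165 in testis, against 6.25 and 54.1 in ovary (6.65-fold, log2 change 2.73, SE 0.588, limma adjusted p = 0.0192). Dppa3 had 2266 and 2004 in testis, against 15.0 and 1197 in ovary (log2 change 3.82, SE 1.19, limma adjusted p = 0.105). One ovary array read almost no Dppa3 and the other had 1197, and this wide gap between ovary arrays stands beside a change that did not pass. Dppa5a had 2557 and 2893 in testis, against 256 and 1638 in ovary (log2 change 2.06, limma adjusted p = 0.0625). Kit, Tfap2c and Prdm1 behaved differently: their log2 changes were -0.23, -0.69 and -0.27, none passed, and their groups overlapped.

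**Figure D1:**
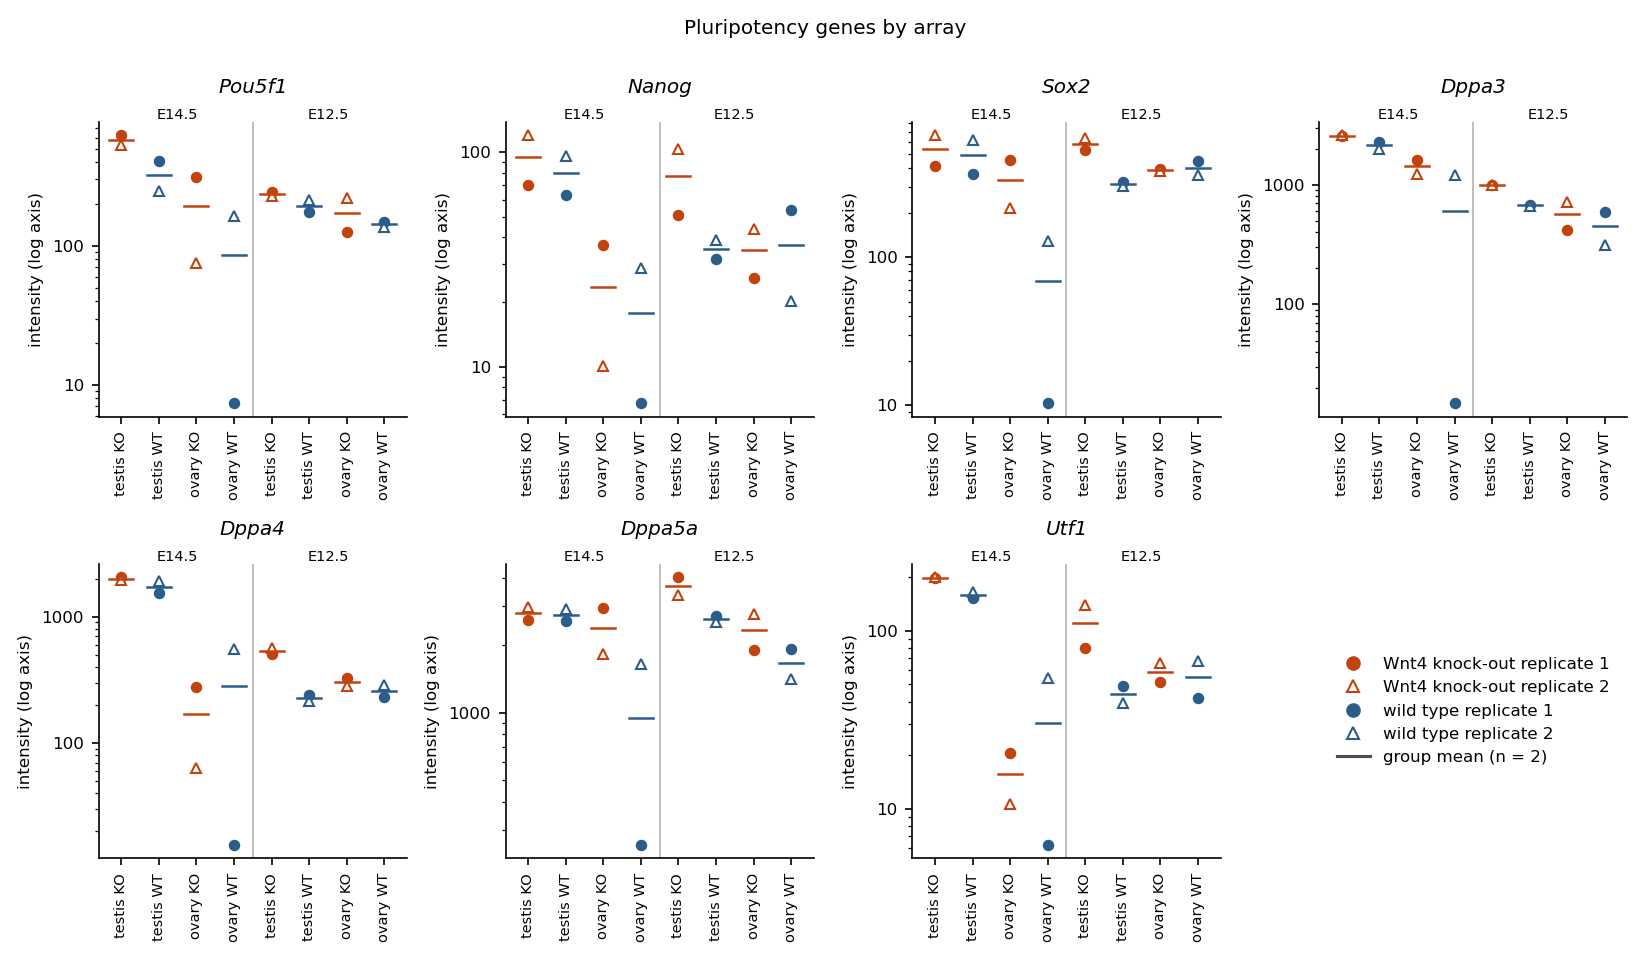
Intensity (log axis) of the 7 pluripotency genes on each of the 16 arrays, by genotype, sex and stage, with group means (n = 2). At E14.5 wild-type ovary replicate 1 is the lowest point for each of the 7 genes, with Dppa3 at 15.0 and Pou5f1 at 7.40.

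The 2 wild-type ovary arrays at E14.5 lay far apart for the pluripotency genes and closer together for most of the germ cell genes. Replicate 1 had Pou5f1, Nanog and Utf1 below the median intensity of the whole array (9.90). Sox2, Dppa3 and Dppa4 read 10.3 to 15.6 on it, and Dppa5a 256. The same array carried 884 of Ddx4 and 2107 of Dazl, RNA-binding proteins of germ cells, against 921 and 2544 on replicate 2. Its sum over 8 germ cell genes was 7569, against 6843 on replicate 2. Of those 8, Dnd1 (25.9 on replicate 1, against 188) and Taf7l (1341, against 629) lay far apart. Replicate 1 also had the highest sum over 13 meiotic entry genes of all 16 arrays, 12204, against 5535 on replicate 2. Replicate 2 carried the RNA from the other sex named above. As a share of the wild-type testis mean at E14.5, its Dppa5a stood at 60.1%, Dppa3 at 56.1%, Pou5f1 at 50.8%, Nanog at 36.2%, Utf1 at 34.2%, Dppa4 at 32.3% and Sox2 at 26.3%. On the same array Eif2s3y, Kdm5d and Uty, all on the Y chromosome, stood at 27.0%, 19.0% and 18.4%. The 6 Sertoli cell genes ran from 20.6% (Amh) to 92.0% (Fgf9), with Cst9 at 39.4% and Sox9 at 51.0%, and the 4 Leydig cell genes from 33.3% (Star) to 44.0% (Cyp17a1). All 7 pluripotency genes lay inside the range of these testis genes. Fgf9, a dim probe set in testis, also stood at 219.8% on replicate 1, and without it Dppa5a and Dppa3 lay above the range. The part of testis RNA in these values was not tested.

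Without wild-type ovary replicate 1 none of the 10 genes was called between wild-type testis and ovary at E14.5 (Sox2 log2 change 1.85, limma adjusted p = 0.0808; Dppa4 1.62, adjusted p = 0.358; Utf1 1.48, adjusted p = 0.181). Without replicate 2 the log2 changes were larger, at 6.81 for Dppa3, 6.45 for Dppa4 and 5.05 for Sox2. Each of these fits holds 1 ovary array, assumed to vary like the other groups. Leaving out wild-type testis replicate 1 or 2 at E14.5 also left no call (Sox2 log2 change 3.83, limma adjusted p = 0.0566, and 3.07, adjusted p = 0.131). The Dppa4 call held in 2 of the 16 fits without 1 array, those without knock-out ovary replicate 2 at E14.5 and without wild-type ovary replicate 2.

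**Figure D2:**
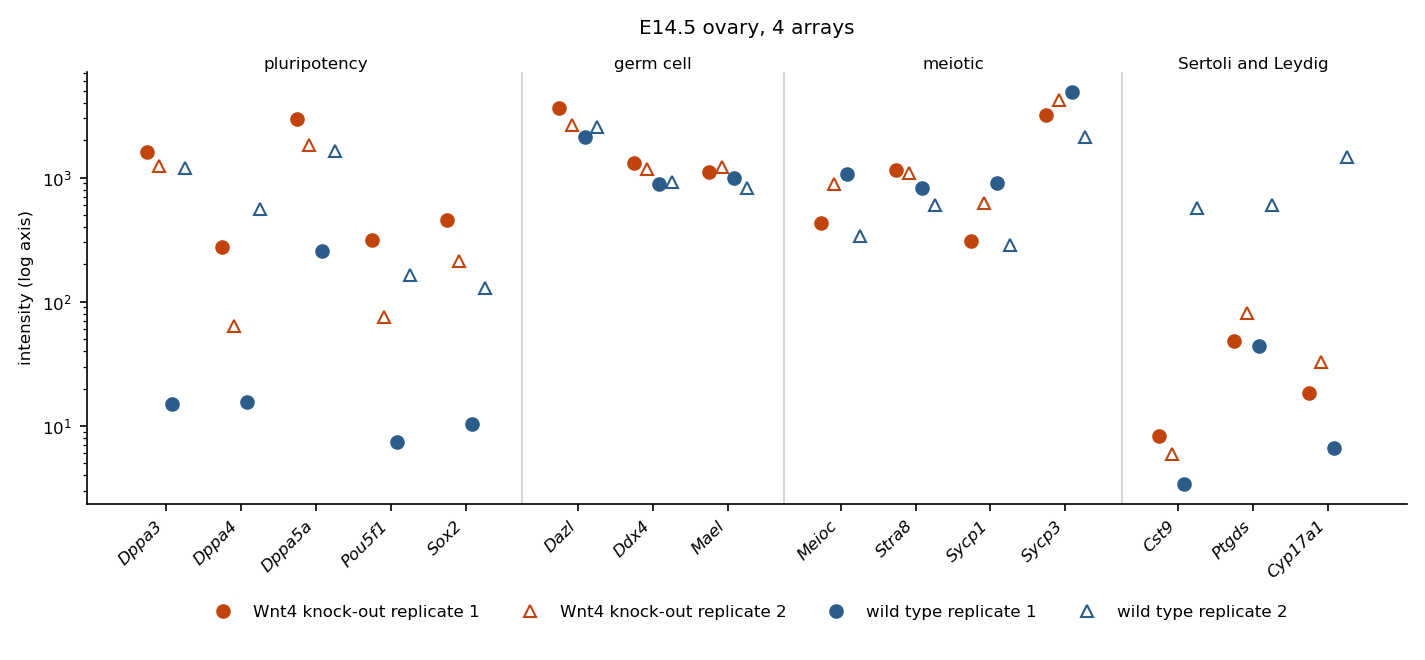
Intensity (log axis) of pluripotency, germ cell, meiotic and testis somatic genes on the 4 ovary arrays at E14.5, knock-out and wild type, 1 point per array. Wild-type replicate 1 carries 2107 of Dazl with 15.0 of Dppa3, wild-type replicate 2 has the highest values of Cst9, Ptgds and Cyp17a1, and the knock-out arrays carry Dppa3 at 1616 and 1240.1 with lower values of those 3 genes.

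The same contrast between knock-out testis and knock-out ovary at E14.5 split the pluripotency genes. Dppa4 and Utf1 were called higher in testis, 2 of the 10 genes, where 5.34% of all genes were called and 3.84% called higher, and the median log2 change of the 10 was 0.94, against 0.02 over all genes. Utf1 had 197 and 201 in knock-out testis, against 20.7 and 10.6 in knock-out ovary (10.7-fold, log2 change 3.42, SE 0.588, limma adjusted p = 0.00335). Dppa4 had 2055 and 1942 in knock-out testis, against 278 and 63.3 in knock-out ovary (14.5-fold, log2 change 3.86, limma adjusted p = 0.0474). Both Dppa4 and Utf1 RNA read far lower on each knock-out ovary array than on each knock-out testis array. Dppa3 had 2543 and 2588 in knock-out testis, against 1616 and 1240.1 in knock-out ovary (log2 change 0.86, limma adjusted p = 0.795). Sox2 had 413 and 666 in knock-out testis, against 454 and 214 in knock-out ovary (log2 change 0.74, limma adjusted p = 0.679). Dppa5a had 2600.1 and 2959 in testis, against 2941 and 1817 in ovary, and for Sox2 and Dppa5a the groups overlapped. Pou5f1 (log2 change 1.87) and Nanog (2.00) did not pass either. The Dppa4 call lay at the threshold and was lost in 14 of the 16 fits without 1 array, with log2 changes of 2.83 to 4.89. The Utf1 call was lost without knock-out ovary replicate 2 at E14.5 (log2 change 3.04, limma adjusted p = 0.051) and held in the other fits without 1 array.

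Between knock-out and wild-type ovary at E14.5, Prdm1 was the gene of the 10 that changed, while 0.543% of all genes were called and 0.341% called lower. Prdm1 had 23.6 and 26.4 in knock-out ovary, against 86.0 and 67.6 in wild-type ovary. It fell 2.77-fold (log2 change -1.47, SE 0.283, limma adjusted p = 0.0358), and the groups did not overlap. The call was lost in 9 of the 16 fits without 1 array: those without knock-out ovary replicate 1 (limma adjusted p = 0.282) or 2 (0.192), wild-type ovary replicate 1 (log2 change -1.31, adjusted p = 0.249), both wild-type testis arrays at E14.5 and all 4 testis arrays at E12.5. The log2 change stayed between -1.64 and -1.31 across those fits. PRDM1 is also made in other cells. Macrophage markers, 7 genes of which none was called, summed to 611 and 859 in knock-out ovary, against 1169 and 819.9 in wild type. Pre-granulosa markers summed to 1333 and 1373 in knock-out ovary, against 4444 and 3204 in wild type, with 2 of 6 called lower (Wnt4 and Lgr5). Wnt4 is the knocked-out gene and part of that sum, so its fall does not speak to these cells. Fst, Irx3 and Bmp2 were lower on both knock-out arrays without a call. Foxl2 overlapped (176 and 193 in knock-out ovary, against 437 and 184 in wild type). The part of macrophages and pre-granulosa cells in the Prdm1 values was not tested.

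Dppa3, Dppa5a and Sox2 were read on both knock-out ovary arrays at E14.5 at values above both wild-type arrays, but no change of a pluripotency gene from wild type passed. Dppa3 had 1616 and 1240.1 in knock-out ovary, against 15.0 and 1197 in wild-type ovary (log2 change 3.23, SE 1.19, limma adjusted p = 0.552). Sox2 had 454 and 214 in knock-out ovary, against 10.3 and 128 in wild type (log2 change 2.86, SE 0.71, limma adjusted p = 0.136). Dppa5a had 2941 and 1817, against 256 and 1638 in wild type (log2 change 1.82, limma adjusted p = 0.319). Wild-type replicate 1 was far below the other arrays for these 3 genes, while Dppa3 and Dppa5a on wild-type replicate 2 came close to the lower knock-out array. Pou5f1 had 312 and 75.5 in knock-out ovary, against 7.40 and 165 in wild type, and the groups overlapped (log2 change 1.85, limma adjusted p = 0.926). Dppa4, Nanog and Utf1 overlapped as well, with log2 changes of 0.40, 0.35 and -0.36.

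How large these differences were depended on the wild-type ovary array used. For replicate 2 the Y-linked genes put the share of RNA of the other sex at 19.9%. Without that array the log2 changes were 6.22 for Dppa3, 4.46 for Sox2, 3.80 for Pou5f1 and 3.15 for Dppa5a. Without replicate 1 none was called, and Pou5f1 turned to -0.10. On the knock-out ovary arrays the Y-linked genes put the share of RNA of the other sex at 0.277% and 0.432%. Testis somatic genes were uneven on them: of the wild-type testis mean, Cst9 stood at 0.583% and 0.413%, Sox9 at 14.7% and 13.9%, Fgf9 at 60.7% and 61.7%, Cyp17a1 at 0.553% and 0.98% and Hsd3b1 at 13.3% and 19.5%. Their part in the pluripotency values was not tested. On the same 2 arrays Dppa3 stood at 75.7% and 58.1%, Sox2 at 93.0% and 43.8%, Dppa5a at 107.9% and 66.7% and Pou5f1 at 95.8% and 23.2%. Nanog stood at 46.5% and 12.7%. Dppa4 stood at 16.2% and 3.69% and Utf1 at 13.0% and 6.68%, the lowest shares of the pluripotency genes on both arrays. The difference between the genes was not tested.

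Within the knock-out ovary, replicate 1 had the higher value for each of the 7 pluripotency genes, from Dppa3 (1616 against 1240.1 on replicate 2) to Pou5f1 (312 against 75.5) and Dppa4 (278 against 63.3). The sum of the meiotic genes ran the other way on these 2 arrays, 8402 on replicate 1 and 10211 on replicate 2, but the genes were split: 9 of 13 were higher on replicate 2, with Meioc, a meiotic regulator, at 432 and 889, and Sycp3, a protein of the meiotic chromosome axis, at 3197 and 4219.5. The other 4 were lower on replicate 2, among them Stra8, which starts meiotic entry, at 1149 and 1081, and Smc1b at 1243 and 971. Germ cell genes summed to 10014 and 9073. Over the 4 ovary arrays at E14.5, wild-type replicate 1 joined the highest meiotic sum to the lowest pluripotency values, which is a description of 4 arrays.

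In the remaining knock-out comparisons none of the 10 genes was called. At E12.5 in the ovary 0.292% of all genes were called, and 0 of the 10 genes had an unadjusted limma p under 0.05. Sox2, for example, had 391 and 383 in knock-out ovary at E12.5, against 448 and 357 in wild type. At E14.5 in the testis 0.00811% of all genes were called and again 0 of the 10 had an unadjusted p under 0.05, with Nanog at 70.4 and 119.7 in knock-out testis, against 63.0 and 96.1 in wild-type testis. In the mean of the 4 knock-out differences 1.43% of all genes were called, and 2 of the 10 genes had an unadjusted p under 0.05. No gene of the 10 was called there. The count rose without wild-type ovary replicate 2 at E14.5, a fit with 1 array in that group.

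At E12.5 the testis had small differences of 1 sign. All 10 genes had a positive log2 change in knock-out testis, with a median of 0.83, against 0.10 over all genes; 0.0405% of all genes were called, and 2 of the 10 had an unadjusted limma p under 0.05. Dppa4 had 508 and 565 in knock-out testis at E12.5, against 239 and 216 in wild type (log2 change 1.22, limma adjusted p = 0.689). Tfap2c had 122 and 115 in the knock-out testes, against 54.2 and 54.4 in the wild-type ones (log2 change 1.07, limma adjusted p = 0.383). Germ cell genes had the same sign in these arrays: 7 of 8 reference genes were positive, with a median of 1.15 and none called, and their sum was 3534 and 3953 in knock-out testis, against 1599 and 1594 in wild type. The part of germ cell number in these differences was not tested, and the 2 wild-type arrays here are the pair that was nearly the same.

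Whether the knock-out difference itself differed between ovary and testis, or the stage change between sexes or genotypes, was tested with 6 interaction terms. None of the 10 genes was called in any of them by limma, and the number with an unadjusted p under 0.05 lay between 1 and 4. Of all genes, 0% were called for the knock-out difference between ovary and testis at E14.5 (295 with an unadjusted limma p under 0.05) and for the ovary stage change between genotypes (557). The testis stage change between genotypes had 0.00811%, the knock-out difference between ovary and testis at E12.5 had 0.114%, and the stage change between knock-out testis and ovary had 1.3% of all genes called. The largest interaction among the 10 genes was that of Dppa4 between wild-type testis and ovary over the stages (log2 difference 4.20, SE 1.47, limma adjusted p = 0.18). Sox2 followed at 3.80 (adjusted p = 0.119), with 0.154% of all genes called. The count in that interaction rose without wild-type ovary replicate 2 at E14.5, a fit with 1 array in that group.

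**Figure D3:**
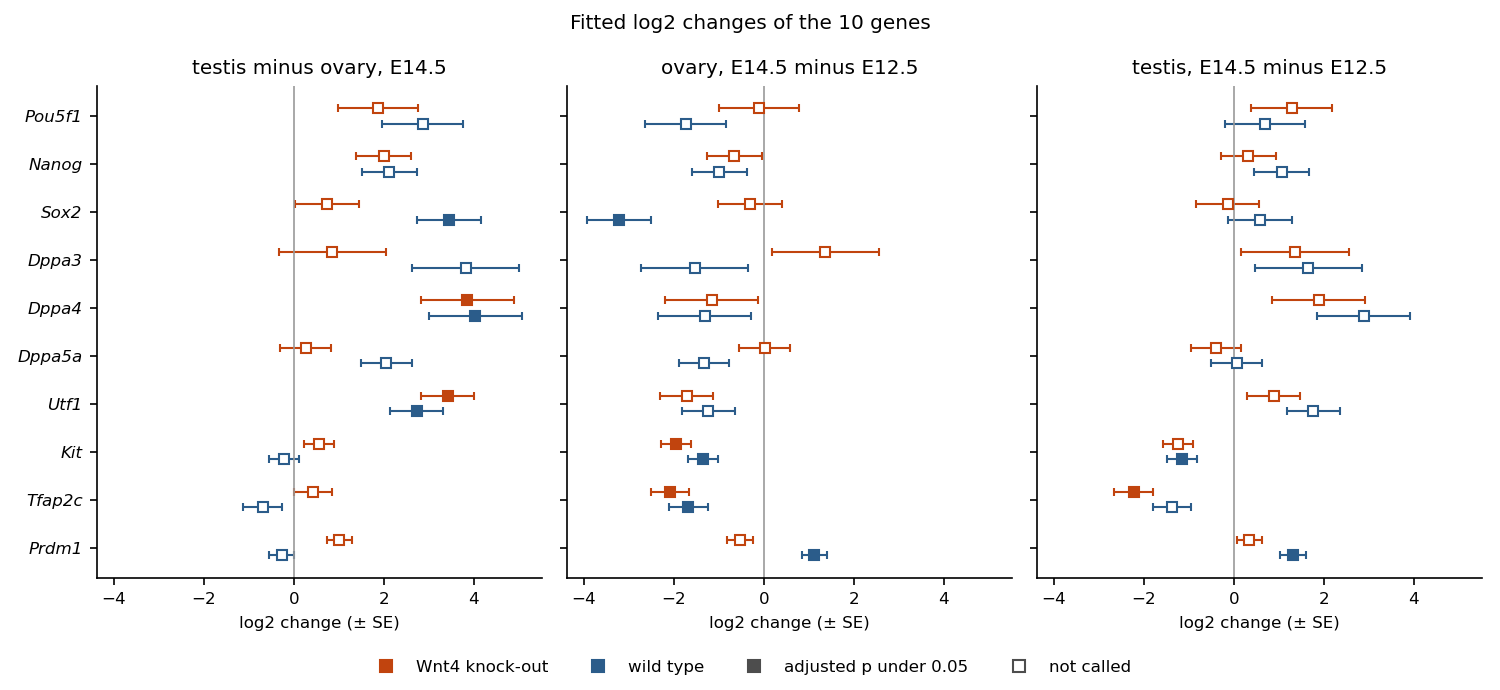
Fitted log2 change (± SE, x axis) of each of the 10 genes in knock-out and wild-type gonads, in 3 panels for testis minus ovary at E14.5, E14.5 minus E12.5 in ovary and E14.5 minus E12.5 in testis; filled squares were called by limma. Dppa4 and Utf1 are called in both genotypes on the left, and Kit and Tfap2c are negative in both stage panels.

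The brightest probe sets of Kit and Tfap2c read lower on every E14.5 array than on every E12.5 array, in both sexes and both genotypes. How many of all genes separate the stages in this way was not counted. The 3'/5' ratio of control probe sets, a measure of RNA quality, was uneven between the stages. At E12.5 it was 2.27 on knock-out ovary replicate 1, 1.76 on knock-out testis replicate 1 and 1.76 on wild-type ovary replicate 2. Every other array, those of E14.5 included, had at most 1.36. Calls without the arrays of high ratio are counted in the closing section. In wild-type ovary 4 of the 10 genes changed between the stages, with 4.36% of all genes called. Kit had 204 and 283 in wild-type ovary at E14.5, against 653 and 592 at E12.5, and fell 2.56-fold (log2 change -1.36, SE 0.333, limma adjusted p = 0.0351). In knock-out ovary, where 13.8% of all genes were called and 2 of the 10 changed, Kit had 191 and 141 at E14.5, against 627 and 666 at E12.5, and fell 3.87-fold (log2 change -1.95, limma adjusted p = 0.00244). KIT signalling supports survival and division of primordial germ cells. In wild-type testis, with 10.6% of all genes called and again 2 of the 10, Kit had 321 and 130.0 at E14.5, against 491 and 427 at E12.5, and fell 2.22-fold (log2 change -1.15, limma adjusted p = 0.0431). In knock-out testis it had 207 and 286 at E14.5, against 610.3 and 547 at E12.5, and the log2 change of -1.23 did not pass (limma adjusted p = 0.0575). The groups did not overlap in any of the 4 pairs. The knock-out ovary call held in all 16 fits without 1 array. The wild-type ovary call was lost in 5 of them, including that without wild-type ovary replicate 1 at E14.5 (log2 change -1.13, limma adjusted p = 0.245). The wild-type testis call was lost in 11, including that without replicate 2 at E14.5 (-0.51, adjusted p = 0.361). A second Kit probe set, dimmer but above the array median on all 16 arrays, did not show this order. It read 20.4 and 14.9 in knock-out testis at E14.5, against 12.0 and 58.8 at E12.5, and 29.7 and 15.3 in wild-type testis at E14.5, against 29.5 and 34.4. In knock-out ovary it read 17.8 and 15.7 at E14.5, against 16.9 and 22.8 at E12.5, and in wild-type ovary 13.4 and 27.0, against 67.9 and 16.7, so the stages overlapped in all 4 groups.

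Tfap2c had 26.1 and 39.7 in wild-type ovary at E14.5, against 126 and 99.4 at E12.5, and fell 3.20-fold (log2 change -1.68, SE 0.430, limma adjusted p = 0.0429). In knock-out ovary it had 27.2 and 8.09 at E14.5, against 67.2 and 91.5 at E12.5, and fell 4.25-fold (log2 change -2.09, limma adjusted p = 0.00769). In the mouse TFAP2C acts downstream of PRDM1 in germ cell specification. In knock-out testis, where Tfap2c alone of the 10 genes was called beside 4.04% of all genes, it had 17.2 and 28.2 at E14.5, against 122 and 115 at E12.5 (log2 change -2.23, limma adjusted p = 0.00937). In wild-type testis it had 11.7 and 28.1 at E14.5, against 54.2 and 54.4 at E12.5 (log2 change -1.38, limma adjusted p = 0.0575). The wild-type ovary call was lost in 10 of the 16 fits without 1 array, with log2 changes of -1.95 to -1.41. The knock-out ovary call was lost without replicate 2 at E14.5 (-1.40, limma adjusted p = 0.0879), and the knock-out testis call without replicate 1 of either stage (-1.93, adjusted p = 0.113, at E14.5). Both other Tfap2c probe sets were dim, and were also higher at E12.5 in ovary. Germ cell genes rose over the same interval, with 7 of 8 called higher in wild-type ovary, 7 in knock-out ovary, 8 in wild-type testis and 4 in knock-out testis.

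Sox2 fell in wild-type ovary between the stages, to 10.3 and 128 at E14.5, against 448 and 357 at E12.5 (9.28-fold, log2 change -3.21, SE 0.708, limma adjusted p = 0.0198). Pou5f1 (log2 change -1.74), Dppa3 (-1.54), Dppa5a (-1.34), Dppa4 (-1.32), Utf1 (-1.23) and Nanog (-0.99) were not called. Meiotic entry genes rose in the same comparison, 13 of 13. Without wild-type ovary replicate 1 at E14.5 none of the 10 genes was called, Dppa3 turned to 1.46 and Pou5f1 to 0.20. Without replicate 2 the log2 changes were -4.53 for Dppa3 and -4.82 for Sox2. Without wild-type ovary replicate 1 at E12.5 Sox2 was the 1 gene called, and without replicate 2 there was none (Sox2 log2 change -3.38, limma adjusted p = 0.0815). In knock-out ovary, 12 of 13 meiotic genes rose, while Sox2 had 454 and 214 at E14.5, against 391 and 383 at E12.5 (log2 change -0.31, limma adjusted p = 0.796).

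In wild-type testis Dppa3, Dppa4 and Utf1 had higher values at the later stage, without a call. Dppa4 had 1528 and 1907 in wild-type testis at E14.5, against 239 and 216 at E12.5 (log2 change 2.88, limma adjusted p = 0.0931). Utf1 had 152 and 165 at E14.5, against 49.0 and 39.2 at E12.5 (log2 change 1.76, limma adjusted p = 0.0726). Dppa3 had 2266 and 2004 at E14.5, against 683 and 661 at E12.5 (log2 change 1.66, limma adjusted p = 0.41). These 3 pairs of groups lay far apart, yet the shared spread of these genes is set in part by the wild-type ovary arrays at E14.5. Without either of those arrays the log2 changes in wild-type testis stayed at 2.88 for Dppa4, 1.76 for Utf1 and 1.66 for Dppa3, and these 3 genes passed. Dppa5a had 2557 and 2893 at E14.5, against 2683 and 2533 at E12.5, and overlapped.

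Prdm1 rose between the stages in wild-type gonads of both sexes. It had 86.0 and 67.6 in wild-type ovary at E14.5, against 27.0 and 39.7 at E12.5 (2.18-fold, log2 change 1.12, SE 0.283, limma adjusted p = 0.0397). In wild-type testis it had 57.1 and 68.1 at E14.5, against 20.9 and 24.7 at E12.5 (2.48-fold, log2 change 1.31, limma adjusted p = 0.011). PRDM1 represses somatic genes in primordial germ cells. In knock-out ovary it had 23.6 and 26.4 at E14.5, against 36.9 and 39.0 at E12.5 (log2 change -0.53, limma adjusted p = 0.207). In knock-out testis it had 40.7 and 72.6 at E14.5, against 38.7 and 45.9 at E12.5, and overlapped. The stage change differed between knock-out and wild-type ovary by a log2 value of -1.66 (limma adjusted p = 0.551), short of the threshold. The wild-type ovary call was lost in 11 of the 16 fits without 1 array, with log2 changes of 0.88 to 1.37. The wild-type testis call was lost without either E12.5 array (1.21, adjusted p = 0.114, and 1.42, adjusted p = 0.0715) or replicate 2 at E14.5 (1.19, adjusted p = 0.0949). With the nearly equal E12.5 arrays of wild-type testis averaged into 1, neither Kit nor Prdm1 was called in wild-type testis, and in wild-type ovary Sox2 alone was.

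**Figure D4:**
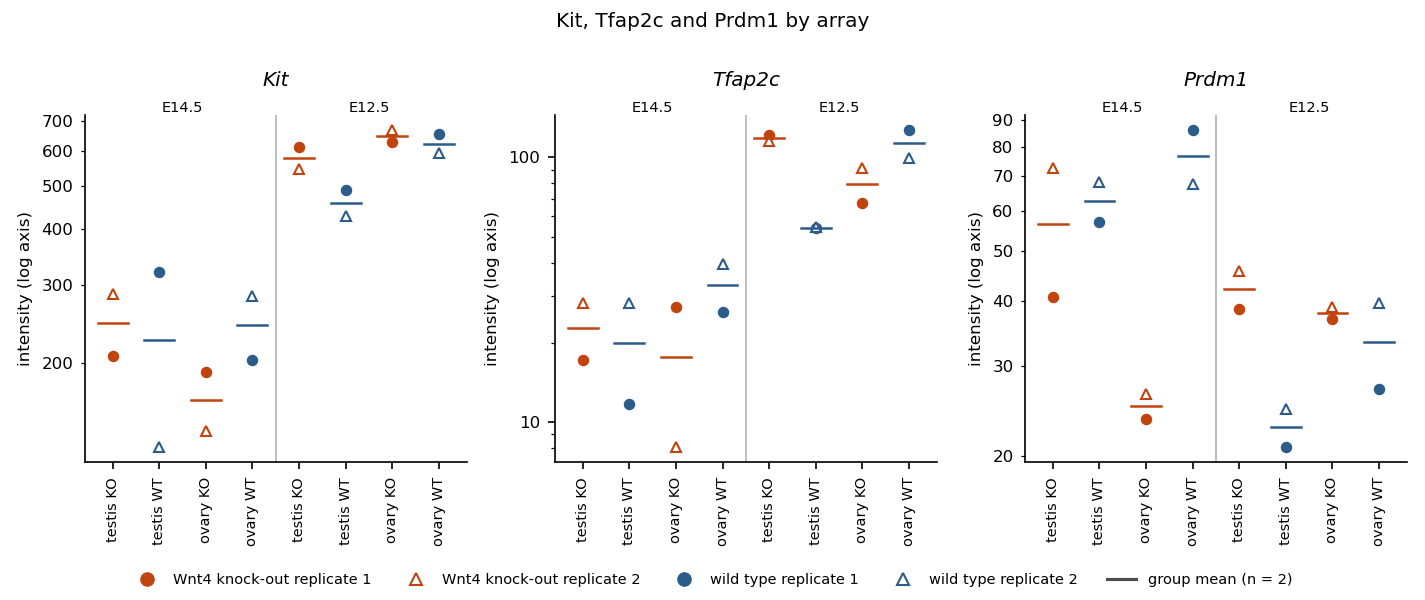
Intensity (log axis) of Kit, Tfap2c and Prdm1 on each of the 16 arrays, by genotype, sex and stage, with group means (n = 2). For the probe sets shown, all 8 arrays of E14.5 lie below all 8 arrays of E12.5 for Kit and Tfap2c, an order not counted over all genes. Among the E14.5 groups Prdm1 is lowest in knock-out ovary, at 23.6 and 26.4.

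Cells other than germ cells can carry Kit, Sox2 or Tfap2c, and their markers were read beside the stage changes. Blood progenitor markers, which share KIT, summed to 964 and 1125 in wild-type ovary at E14.5, against 1127 and 1350.5 at E12.5, with 1 of 5 called higher (Runx1) and 1 lower (Tal1). Melanoblast and mast cell markers summed to 187 and 76.4, against 65.8 and 88.8, with none of 4 called. Glial markers, which share SOX2, summed to 259.9 and 283 in wild-type ovary at E14.5, against 322 and 368 at E12.5, with Erbb3 called lower. Surface ectoderm and duct markers, which share TFAP2C, summed to 2256 and 2402, against 1584 and 2100.3, with none of 3 called. Of 6 endothelial markers none was called there and 1 had an unadjusted limma p under 0.05. In the knock-out ovary over the same stages, Myb and Tal1 of the blood progenitor list, Sox10 and Erbb3 of the glial list and Kdr and Tie1 of the endothelial list were called lower. In knock-out testis Dct of the melanoblast and mast cell list (log2 change -2.75) and Tal1 (-1.56) were called lower. In wild-type testis Fabp7 of the glial list (-2.07) and Cldn5 of the endothelial list (-0.95) were called lower, and Krt8 of the ectoderm and duct list was called higher (1.05). The part of these cells in the values of Kit, Sox2 and Tfap2c was not tested.

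At E12.5 none of the 10 genes was called between testis and ovary in either genotype, and 1 in wild type and 0 in knock-out had an unadjusted limma p under 0.05. In all, 0.608% of genes were called in wild type and 1.14% in knock-out. Pou5f1 had 174 and 215 in wild-type testis, against 149 and 138 in wild-type ovary. Dppa3 had 993 and 1002 in knock-out testis, against 418 and 713 in knock-out ovary (log2 change 0.87, limma adjusted p = 0.71). Dppa4 had 239 and 216 in wild-type testis, against 229 and 288 in wild-type ovary, and here the groups overlapped.

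A wider list of 27 pluripotency and germ cell genes, of which 24 were tested, was read beside the 10. In wild-type testis against ovary at E14.5, 8 were called higher and 1 lower, with a median log2 change of 0.95, against -0.02 over all genes, of which 3.84% were called. Lin28a, an RNA-binding protein that blocks let-7 maturation, had 224 and 430.3 in testis, against 8.51 and 89.7 in ovary (log2 change 3.20, limma adjusted p = 0.019). Dppa2, the partner of Dppa4, had 78.8 and 109 in testis, against 5.75 and 27.5 in ovary (log2 change 2.46, limma adjusted p = 0.0198). Alpl, the alkaline phosphatase long used to stain primordial germ cells, had 125 and 180.4 in testis, against 26.5 and 53.3 in ovary (log2 change 1.88, limma adjusted p = 0.0157). As for the 10 genes, wild-type ovary replicate 1 read lower than replicate 2 for all 3.

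In knock-out testis against ovary at E14.5, 6 of the 24 were called higher, beside 5.34% of all genes called, among them Alpl (log2 change 2.34, limma adjusted p = 0.00263), Cdh1, Trim71 and L1td1. Between the stages 2 of 24 fell in wild-type ovary, where 4.36% of all genes were called, and 3 of 24 in knock-out ovary, a share near the 13.8% of all genes called there. L1td1, an RNA-binding protein of pluripotent cells, had 10.8 and 42.9 in wild-type ovary at E14.5, against 215 and 141 at E12.5 (log2 change -2.76, limma adjusted p = 0.00599). In wild-type testis 4 rose and 2 fell, beside 10.6% of all genes called, and in knock-out testis 1 rose and 4 fell, beside 4.04%. Alpl rose in both, while Tdgf1, a NODAL co-receptor, fell in both. Between knock-out and wild type none of the 24 was called in any single sex and stage, where 1 to 15 had an unadjusted limma p under 0.05. The 15 belong to testis at E12.5, where 23 of 24 changes were positive, as among the 10 genes.

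Of 10 ligands and receptors that act on primordial germ cells, 8 were tested. Kitl, which encodes the ligand of KIT, had 1145 and 1556 in wild-type testis at E14.5, against 3189 and 2493 in wild-type ovary, and was lower in testis (log2 change -1.08, limma adjusted p = 0.00677). In knock-out ovary at E14.5 Kitl had 1492 and 1595, against the same wild-type ovary values, and its log2 change of -0.87 stayed short of the threshold (limma adjusted p = 0.0787). Cxcl12, the chemokine that guides migrating germ cells, was higher in the mean of the 4 knock-out differences (log2 change 0.50, SE 0.0825, limma adjusted p = 0.00848). Among 6 partners and relatives of PRDM1 and TFAP2C, Tfap2a and Tfap2b fell between the stages in wild-type and knock-out ovary, as Tfap2c did. Prmt5, a methyltransferase that binds PRDM1, was not called in any of these comparisons.

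Genes of male germ cell differentiation separated differently in the knock-out ovary. Of 7 tested, Lefty1 and Lefty2, inhibitors of NODAL signalling, were called higher in knock-out than in wild-type ovary at E14.5. Their log2 changes were 2.08 (limma adjusted p = 0.0145) and 1.66 (adjusted p = 0.0263), beside 0.543% of all genes called. Lefty2 was also called higher in knock-out ovary at E12.5 (log2 change 1.79, limma adjusted p = 0.0331). In the mean of the 4 knock-out differences both were called higher (Lefty1 1.44, limma adjusted p = 0.0013, and Lefty2 1.14, adjusted p = 0.0025). Piwil4 and Dnmt3l, which act in transposon silencing in male germ cells, were not called between knock-out and wild-type ovary at E14.5. At that stage they were higher in testis than in ovary in both genotypes.

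Across the 16 arrays the 7 pluripotency genes varied together, with Pearson correlations of log2 intensity between 0.64 and 0.94. The highest was that of Dppa4 with Utf1 (0.94) and the lowest that of Dppa5a with Utf1 (0.64). Dppa5a and Sox2 followed each other at 0.93 and Pou5f1 and Dppa3 at 0.91. Pou5f1 stood near both pairs, at 0.89 with Dppa4 and 0.88 with Dppa5a. Kit went with Tfap2c (0.85) and with none of the pluripotency genes (at most 0.27), and Prdm1 followed no other gene of the 10 above 0.29. The arrays share groups, stages and the array that stands apart, so these values are descriptions over 16 arrays. Over all genes tested, the one most like Dppa4 was Dnd1 (0.95), an RNA-binding protein of germ cells. For Pou5f1 it was Dmrt1 (0.93), for Sox2 Rhox5 (0.93), for Utf1 Zswim1 (0.95), for Nanog Shmt1 (0.93) and for Tfap2c Mycn (0.92). For Kit it was Proser1 (0.92) and for Prdm1 Kcnma1 (0.87).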

How the data were processed

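Gene expression was measured as probe-set intensity in 16 arrays of embryonic gonad. The authors made the deposited linear intensities of 45101 probe sets with MAS5, per the submitters' processing notes, whose version and scaling target the sources do not state. To each deposited intensity 4 was added before log2 was taken. A probe set counted for a gene where the platform annotation gave it 1 symbol, passed where it exceeded the array median in at least 2 arrays, and the one with the highest mean stood for the gene, which left 12332 genes. In limma 3.58.1 (R 4.3.3) 1 linear model with the 8 groups took in all arrays, with a variance trend on intensity and 5.29 prior beside 8 residual degrees of freedom. The 19 comparisons were two-sided, adjusted by Benjamini-Hochberg over genes, and called at 0.05.

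The 10 genes, the background lists and the tests were chosen with earlier results of these data known. Genes named were these 10 with each probe set, up to 4 genes of a list by smallest p, the closest genes by correlation, and Wnt4 and sex-linked genes. Genes counted, singled out or read as markers outside that rule were chosen after their values were seen. Shares of opposite-sex RNA were estimated from Eif2s3y, Kdm5d and Uty in ovaries and Xist in testes. Alternatives covered the pseudocount, filter, normalization, variance model, array weights, replicate block, probe sets, covariates, arrays in the fit and leaving out each array. The code was tested on simulated data. Figures were drawn with matplotlib 3.10.9.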

Additional observations from a re-analysis of the deposited data

How the results depend on the processing

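Counts under the alternatives, here and above, stand without the share of all genes called in the same fit. A rise in them is therefore not read as particular to the 10 genes. Between knock-out and wild type, the count of the 10 genes called stayed at 0 under each alternative in ovary at E12.5 and testis at both stages. In ovary at E14.5 the 1 call became 0 with no filter, quantile normalization, array weights, the almost identical arrays averaged, arrays of a log2 3'/5' ratio above 0.5 left out, germ cell genes as covariate or only the arrays of the comparison, and 5 without arrays of over 10% opposite-sex RNA. Leaving out single arrays gave 0 to 6. Without the arrays of over 10% opposite-sex RNA, counts were 2 for wild-type and 2 for knock-out testis against ovary at E12.5, 6 for wild-type testis against ovary at E14.5, 8, 5, 4 and 3 for the stage change in wild-type ovary, wild-type testis, knock-out ovary and knock-out testis, 3 for the mean knock-out difference, and 6, 1, 2 and 1 for the interactions of stage in wild-type testis and ovary, stage in knock-out testis and ovary, stage in knock-out and wild-type ovary, and knock-out in ovary and testis at E14.5. With germ cell genes as covariate 0 were called in wild-type testis against ovary at E14.5 and in all 4 stage changes, and 1 in knock-out testis against ovary at E14.5; that fit also turned the wild-type testis stage change of Dppa3 to -0.59 and of Kit to 0.47.

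Leaving out single arrays gave 0 to 7 calls for wild-type and 0 to 3 for knock-out testis against ovary at E14.5; 0 to 8, 0 to 5, 1 to 4 and 0 to 3 for the stage change in wild-type ovary, wild-type testis, knock-out ovary and knock-out testis; 0 to 5 for the mean knock-out difference; and 0 to 6, 0 to 2, 0 to 3 and 0 to 3 for the same 4 interactions. Without wild-type ovary replicate 1 at E14.5 Pou5f1 turned to -0.10 between knock-out and wild-type ovary and to 0.20 between the stages, and Dppa3 to 1.46; without replicate 2 these were 3.80, -3.69 and -4.53. Fits of only the arrays compared gave 0, 4, 0, 6, 4 and 5 calls for wild-type and knock-out testis against ovary at E14.5 and the stage change in wild-type ovary, wild-type testis, knock-out ovary and knock-out testis, and 1 for the stage interaction in knock-out. In knock-out testis against ovary at E14.5 array weights gave 4 calls, and the filter of 8 arrays, averaged near-identical arrays, opposite-sex covariate and 3'/5' exclusion 1 each; the opposite-sex covariate gave 5 in wild type. For the stage change, wild-type ovary had 2 calls with no filter, 0 with array weights, 1 with arrays averaged and 0 with 3'/5' exclusion. Wild-type testis had 4 with pseudocount 16, 5 with array weights, 0 with arrays averaged, and 1 each with no filter, no trend, the mean of probe sets or 3'/5' exclusion. Knock-out ovary had 1 with the mean of probe sets and 1 with the 3'/5' covariate, and knock-out testis had 2 with quantile normalization, 2 with array weights and 0 with 3'/5' exclusion. The causes were not tested.

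Replicate numbers did not pair the arrays in the same way across comparisons. Deviations of same-numbered arrays correlated between -0.66 (knock-out and wild-type ovary at E12.5) and 0.58 (knock-out and wild-type testis at E14.5). In testis at E14.5 both replicate 2 arrays had above 10% RNA of the other sex. With the replicate number as a block, 2 genes were called in wild-type testis against ovary at E14.5 and 3 in the wild-type ovary stage change, against 3 and 4 without it. Over 992 alternative values of single genes 775 kept direction and call, 161 lost and 51 gained a call, and 5 changed sign. The 2 arrays per group limit each comparison.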
